A study of Homo sapiens with 6 samples.

Results

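The 8 genes described here encode phosphatases of the dual-specificity (DUSP) family that act on, or are classed with those that act on, mitogen-activated protein (MAP) kinases. They were chosen by name, as DUSP1, DUSP4, DUSP5, DUSP6, DUSP7, DUSP10, DUSP14 and DUSP16, out of 19676 genes measured. All 8 were measured. RNA of A375, an established human melanoma cell line with mutated BRAF, was hybridised to 6 Affymetrix arrays, 1 array for each condition. Cells were kept for 6 h in the solvent DMSO, in 10 µM vemurafenib, in 100 nM AT9283, or in 10 µM vemurafenib plus 100 nM AT9283 (the combination), and for 16 h in DMSO or in 10 µM vemurafenib. AT9283 and the combination were measured at 6 h only, and every group came from the same cell line. Vemurafenib blocks the mutant BRAF kinase. AT9283 is an inhibitor of Aurora kinases, of JAK2 and of some further kinases.

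MAP kinase phosphatases switch off MAP kinases by removing phosphate from both the threonine and the tyrosine of the activation loop. ERK, the last kinase of the RAF-MEK-ERK chain, induces transcription of several of them, so that the phosphatases form a negative feedback on the pathway that induced them. In melanoma cells with mutant BRAF the chain is held active, and high DUSP6 and DUSP4 mRNA is a known mark of its output. DUSP1, DUSP4 and DUSP5 are inducible nuclear enzymes, with DUSP5 selective for ERK. DUSP6 and DUSP7 are cytoplasmic and prefer ERK, DUSP10 and DUSP16 prefer JNK and p38, and DUSP14 is a small atypical member without the kinase-binding domain of the others.

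The upstream sequence of 4 members is printed because the results turn on how they moved: DUSP6 and DUSP7 carried falls under vemurafenib, DUSP1 a smaller difference, and DUSP10 one with AT9283. Each run is the 250 bases before the gene's start, 5′ to 3′ on the gene's strand, from RefSeq on GRCh38.p14, and all 4 genes lie on the minus strand. Of the 2 start sites listed for DUSP10, the first is shown. The windows are chr12:89352502-89352751 for DUSP6, chr3:52056572-52056821 for DUSP7, chr5:172771196-172771445 for DUSP1 and chr1:221742090-221742339 for DUSP10. Capitals mark matches on either strand to any of 5 motifs: CCGGAA (bound by ETS factors), TGACGTCA (the cAMP response element, CRE), TGANTCA (AP-1), CCAAT, and the CArG box by its name.
DUSP6: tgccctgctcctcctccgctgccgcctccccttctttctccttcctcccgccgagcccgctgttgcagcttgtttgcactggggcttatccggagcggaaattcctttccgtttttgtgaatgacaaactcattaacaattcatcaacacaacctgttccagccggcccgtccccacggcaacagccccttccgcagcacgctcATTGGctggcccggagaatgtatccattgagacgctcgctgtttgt
DUSP7: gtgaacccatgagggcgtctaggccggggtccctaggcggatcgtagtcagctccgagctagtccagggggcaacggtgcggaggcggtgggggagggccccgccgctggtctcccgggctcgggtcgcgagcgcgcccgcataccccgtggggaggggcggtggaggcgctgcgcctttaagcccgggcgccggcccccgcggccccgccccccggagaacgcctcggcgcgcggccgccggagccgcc
DUSP1: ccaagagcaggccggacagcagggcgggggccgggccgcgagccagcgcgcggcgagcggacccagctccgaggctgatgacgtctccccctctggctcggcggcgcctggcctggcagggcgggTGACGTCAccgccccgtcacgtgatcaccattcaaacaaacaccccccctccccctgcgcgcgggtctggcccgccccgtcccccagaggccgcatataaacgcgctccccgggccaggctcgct
DUSP10: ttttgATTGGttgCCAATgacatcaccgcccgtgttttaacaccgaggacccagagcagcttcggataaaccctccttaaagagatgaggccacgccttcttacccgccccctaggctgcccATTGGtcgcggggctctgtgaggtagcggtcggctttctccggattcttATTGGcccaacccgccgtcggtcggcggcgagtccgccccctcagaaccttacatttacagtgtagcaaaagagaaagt
The DUSP1 window held 1 TGACGTCA, between 125 and 118 bases before the start, a motif present in 1.65% of the 35116 windows of this length. DUSP6 had 1 CCAAT box on the opposite strand, between 46 and 42 bases before the start, and the DUSP10 window shown had 4 CCAAT boxes. The window of the second DUSP10 start site, not shown, had no match to any of the 5 motifs. The CCAAT motif was present in 32.0% of all windows. The ETS motif, the AP-1 motif and the CArG box, found in 14.5%, 6.57% and 1.16% of all windows, had no match in these 4, and the DUSP7 window had no match to any of the 5. The G and C content was 57.2% for DUSP6, 78.4% for DUSP7, 74.4% for DUSP1 and 56.4% for DUSP10, against a median of 58.0% over all windows. DUSP4 and DUSP5 are named only. A match describes letters and not a bound site.

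Median intensities of the arrays were 19.79 to 21.29. The floor used here is an intensity of 64 (log2 6), which 44.7% to 46.1% of genes reached on an array. "At the floor" means at or above this value, in a comparison on the higher of its arrays. Of the melanocyte lineage markers, 8 of 9 were measured. SOX10, MITF and MIA were at the floor on all 6 arrays and S100B on 1. PMEL, MLANA, TYR and TYRP1 were below it on all 6, so the pigment genes that mark differentiated melanocytes were at background. Of the undifferentiated melanoma markers, AXL was at the floor on all 6 arrays, NT5E on 5, EGFR on 3 and NGFR on 0. The 3 immune and 2 endothelial markers were below the floor on all arrays. KRT8 of the 3 epithelial and COL1A1 of the 3 fibroblast markers were at it on all 6. Since each condition has 1 array, differences carry no estimate of replicate error, and precision is limited by how few arrays there are. "Rose" and "fell" below mean that log2 values differed by 1 or more (2-fold) and that the higher array reached the floor. This size rule is no test. DUSP16 did not reach the floor on any array, so 7 of the 8 genes could pass.

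With vemurafenib the ERK phosphatases DUSP5, DUSP6 and DUSP7 fell together with DUSP4, and DUSP1, DUSP10, DUSP14 and DUSP16 did not pass the size rule. At 6 h, 4 of the 7 genes at the floor fell (DUSP4, DUSP5, DUSP6 and DUSP7) and 0 rose, against 2.14% of 9095 genes at the floor that fell and 1.03% that rose. The same 4 fell at 16 h and 0 rose, against 5.79% and 5.19% of 9469 genes. The members were chosen with earlier results of these data known, so their counts here and below are no independent evidence. The median over the 8 genes was -1.04 at 6 h and -0.90 at 16 h, and 0.02 and 0.00 over all genes. When the 3 arrays with vemurafenib were set against the 3 without, 5 of the 7 genes lay wholly lower (the 4 that fell and DUSP1), as did 12.2% of 9707 genes. In bulk RNA, fewer cells that express a gene and less of its RNA per cell cannot be told apart.

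**Figure D1:**
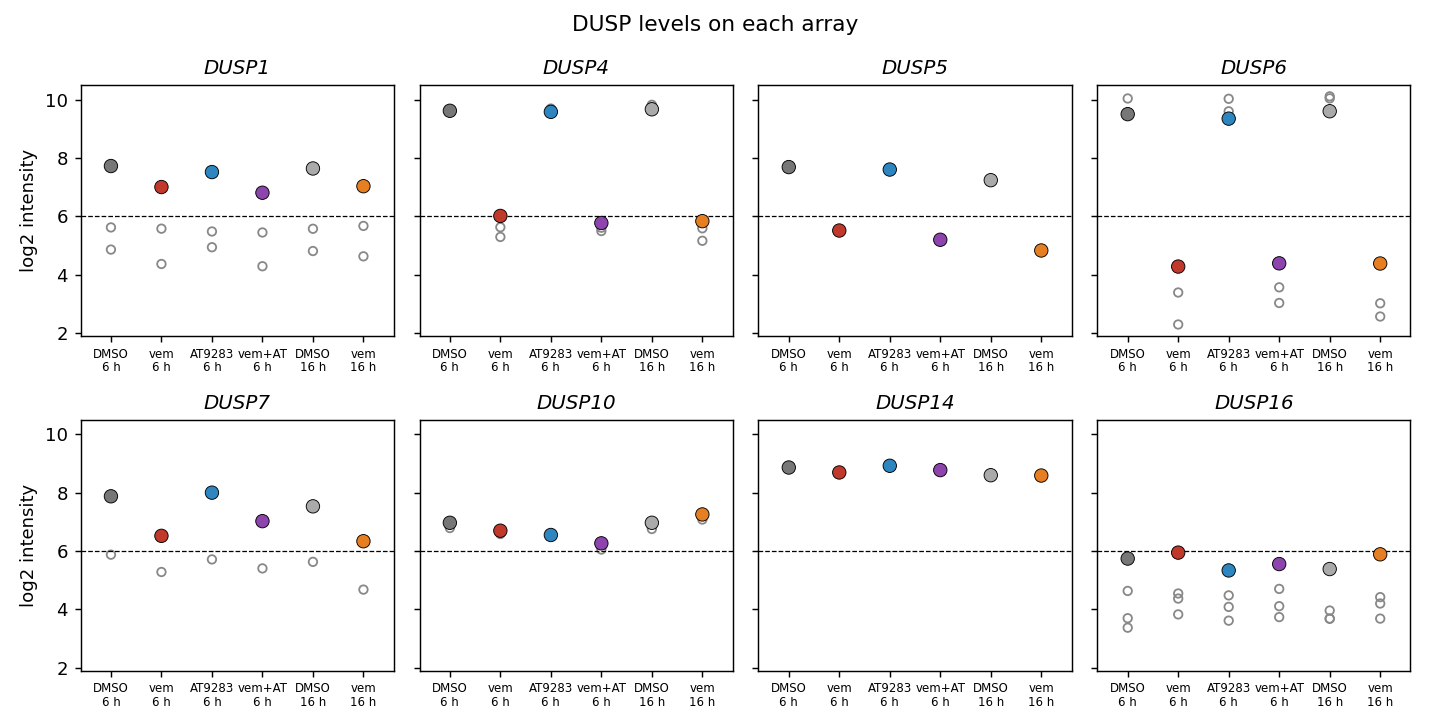
The 8 panels plot log2 intensity (y axis) on each of the 6 arrays (x axis). Filled points are the probe set used for each gene, open grey points its other probe sets, and the dashed line is the floor at log2 6. For DUSP4, DUSP5 and DUSP6 the vemurafenib and combination arrays lie far below the DMSO and AT9283 arrays, whereas DUSP14 stays between 8.59 and 8.93.

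Among the inducible nuclear enzymes DUSP4 stood at log2 9.62 in DMSO, 6.02 in vemurafenib, 9.58 in AT9283 and 5.77 in the combination at 6 h, and at 9.67 in DMSO and 5.84 in vemurafenib at 16 h. The 3 arrays without vemurafenib lay within 0.1 of one another and the 3 with it lay close to log2 6, from 5.77 to 6.02. DUSP4 thus fell 12.2-fold at 6 h (log2 -3.61) and, with the vemurafenib array raised to the floor, 12.7-fold at 16 h (-3.67), in place of 14.3-fold (-3.84) as measured. Its other probe sets gave -4.29 and -4.03 at 6 h and -4.58 and -4.23 at 16 h.

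DUSP5, which holds ERK inactive in the nucleus, stood at 7.69 in DMSO, 5.51 in vemurafenib, 7.61 in AT9283 and 5.20 in the combination at 6 h, and at 7.24 in DMSO and 4.83 in vemurafenib at 16 h. The arrays with vemurafenib were all below the floor and all below those without it. The differences were -2.18 at 6 h (4.52-fold) and -2.41 at 16 h (5.32-fold). With the vemurafenib array raised to the floor they came to 3.23-fold and 2.36-fold, so that part of their size lies near background. DUSP5 had 1 probe set, and no other one serves as a check.

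DUSP1, the stress-induced and serum-induced enzyme that acts on p38, JNK and ERK, moved far less. It stood at 7.73 in DMSO, 7.01 in vemurafenib, 7.52 in AT9283 and 6.81 in the combination at 6 h, and at 7.64 in DMSO and 7.03 in vemurafenib at 16 h. The arrays with vemurafenib, from 6.81 to 7.03, did not overlap those without, from 7.52 to 7.73, but the differences of -0.72 and -0.61 were under the size rule. Over genes at the floor, 3.56% had a lower difference at 6 h and 14.1% at 16 h. The other 2 probe sets, both below the floor on every array, gave -0.49 and -0.04 at 6 h and -0.18 and 0.10 at 16 h.

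Of the cytoplasmic pair, DUSP6 stood at 9.50 in DMSO, 4.28 in vemurafenib, 9.35 in AT9283 and 4.39 in the combination at 6 h, and at 9.60 in DMSO and 4.38 in vemurafenib at 16 h. The 3 arrays with vemurafenib, from 4.28 to 4.39, were all well below the floor. The differences as measured were -5.23 at 6 h and -5.22 at 16 h, but their size lies partly in background readings. With the vemurafenib array raised to the floor the fall was 11.4-fold at 6 h (-3.50) and 12.2-fold at 16 h (-3.60), in place of 37.4-fold and 37.3-fold. So bounded, DUSP6 had the fourth lowest difference of 9095 genes at 6 h and the fifth lowest of 9469 at 16 h, behind DUSP4 at both times, and as measured the lowest. All 3 DUSP6 probe sets lay between 9.35 and 10.12 without vemurafenib and between 2.29 and 4.39 with it. The other 2 gave -6.65 and -7.26 at 6 h and -7.10 and -7.48 at 16 h.

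DUSP7, the nearest relative of DUSP6 in location and preference, kept more of its signal. It stood at 7.88 in DMSO, 6.52 in vemurafenib, 8.0 in AT9283 and 7.03 in the combination at 6 h, and at 7.54 in DMSO and 6.34 in vemurafenib at 16 h. Every array was above the floor, and those with vemurafenib were all below those without. DUSP7 fell 2.56-fold at 6 h (-1.36) and 2.29-fold at 16 h (-1.20). Its second probe set, below the floor on every array, gave -0.59 and -0.95. The mean of both probe sets gave -0.97 at 6 h, under the size rule, and -1.07 at 16 h.

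Of the JNK and p38 phosphatases only DUSP10 could be read, since DUSP16 was below the floor on all 6 arrays. DUSP10 stood at 6.97 in DMSO, 6.70 in vemurafenib, 6.55 in AT9283 and 6.27 in the combination at 6 h, and at 6.97 in DMSO and 7.26 in vemurafenib at 16 h. The combination was the lowest array and vemurafenib at 16 h the highest, and arrays with and without vemurafenib overlapped. The vemurafenib difference was -0.27 at 6 h and 0.29 at 16 h. The second probe set gave -0.20 and 0.32, and the signs at both times were the same in every alternative run. DUSP16 stood at 5.74, 5.95, 5.34 and 5.56 in DMSO, vemurafenib, AT9283 and the combination at 6 h, and at 5.39 in DMSO and 5.89 in vemurafenib at 16 h. Its differences of 0.20 and 0.51 under vemurafenib therefore describe values near background.

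DUSP14, the atypical member, varied least of the 8 genes. Its level was 8.87 in DMSO, 8.70 in vemurafenib, 8.93 in AT9283 and 8.78 in the combination at 6 h, and 8.60 in DMSO and 8.59 in vemurafenib at 16 h. The range over the 6 arrays was 0.33 on the log2 scale, and arrays with and without vemurafenib overlapped. The vemurafenib difference was -0.17 at 6 h and -0.01 at 16 h, the latter 0.07 after quantile normalization.

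**Figure D2:**
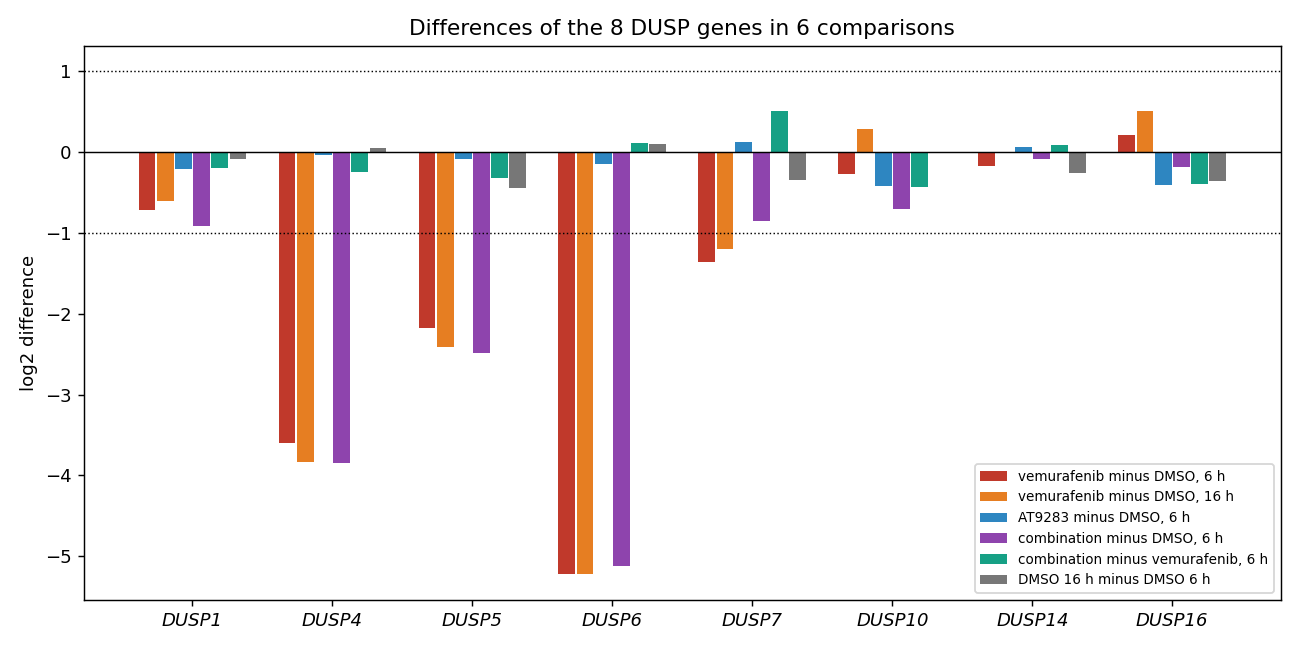
Bars give the log2 difference (y axis) of each gene (x axis) in 6 comparisons, 1 colour for each, from 1 array per condition and so without error bars. Dotted lines mark differences of -1 and 1. Vemurafenib at 6 h, at 16 h and the combination reach -5.23, -5.22 and -5.12 for DUSP6 with values below the floor as measured, whereas AT9283 alone stays between -0.42 and 0.12 for all 8 genes.

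Limma was fitted to the 4 arrays of DMSO and vemurafenib, with time as a blocking term, on 9651 genes and with Benjamini-Hochberg adjustment over all of them. It called the same 4 genes lower, with 0.839% of genes called lower. The estimate for DUSP6 was -5.22 (SE 0.13, limma adjusted p 0.00516). For DUSP4 it was -3.72 (SE 0.14, limma adjusted p 0.00823). For DUSP5 it was -2.29 (SE 0.17, limma adjusted p 0.0274) and for DUSP7 -1.28 (SE 0.13, limma adjusted p 0.0384). DUSP1, at -0.66 (SE 0.13), had a limma adjusted p of 0.114. DUSP10 and DUSP14 had estimates of 0.01 (SE 0.18) and -0.09 (SE 0.15). The 1 residual degree of freedom of the fit holds how far the vemurafenib difference changed with time, and no spread of replicates. The estimates of DUSP4, DUSP5 and DUSP6 use values below the floor. With those raised to it, limma called 2 of the 4, DUSP4 (-3.64) and DUSP6 (-3.55), each at a limma adjusted p of 0.0236, while DUSP5 (-1.47) had 0.0743 and DUSP7 0.0679. The share of all genes called lower shrank as well, to 0.176% of 9650. Over the alternatives the limma adjusted p of DUSP7 ranged from 0.0154 to 0.0870, that of DUSP1 from 0.0231 to 0.309 and that of DUSP5 from 0.00439 to 0.0743. In the fits run DUSP4 and DUSP6 stayed under 0.05.

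The vemurafenib differences at 6 h and 16 h rest on separate arrays. From 6 h to 16 h they moved by 0.16 for DUSP7, by 0.11 for DUSP1, by 0.16 for DUSP14 and by 0.56 for DUSP10, all read above the floor. For the other genes with falls the change rests on values below the floor. With such values raised to the floor it was -0.07 for DUSP4, 0.45 for DUSP5 and -0.10 for DUSP6. For DUSP5 and DUSP6 both vemurafenib arrays then stood at the floor itself. Their raised values thus hold only the difference between the DMSO arrays and no change under vemurafenib. As measured the change was -0.23 for DUSP5 and 0.005 for DUSP6, each of the opposite sign. No direction can be read for these genes. The 7 changes lay inside the central 95% of 9651 genes treated the same way, from -0.90 to 0.87. In DMSO alone, 0 of the 7 genes passed the size rule between 16 h and 6 h, where 0.276% of 9055 genes did. DUSP5 (-0.45), DUSP7 (-0.34) and DUSP14 (-0.26) were lower at 16 h, and DUSP4 (0.05) and DUSP6 (0.10) differed by little, inside the central 95% of genes from -0.47 to 0.48. Time and any difference in the processing of the 6 h and 16 h arrays cannot be told apart there.

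AT9283 alone put 0 of the 7 genes over the size rule at 6 h, where 0.0224% of 8938 genes passed it. DUSP4, DUSP5 and DUSP6, the targets with the largest falls under vemurafenib, differed by -0.04, -0.08 and -0.15. DUSP7 differed by 0.12 and DUSP14 by 0.06. DUSP10 had the lowest difference of the 8, at -0.42, and 0.168% of genes at the floor were lower, since the spread of this comparison was narrow (SD 0.13 across genes). Its second probe set gave -0.23. DUSP1 was at -0.21, with 2.77% of genes lower. Its other probe sets, below the floor on every array, gave 0.08 and -0.14. DUSP16, below the floor, was at -0.41.

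In the combination DUSP4 (-3.85), DUSP5 (-2.49) and DUSP6 (-5.12) fell relative to DMSO at 6 h and 0 of the 7 genes rose, against 1.93% of 9076 genes that fell and 0.639% that rose. These values and those of vemurafenib alone share the DMSO array. Set side by side, the combination difference of DUSP7, read above the floor, was 62.9% of the vemurafenib difference. For DUSP4, DUSP5 and DUSP6 the drug arrays were near or below the floor, and as measured they gave 106.7%, 114.5% and 97.9%. Raised to the floor they gave 100.4%, 100% and 100%. For DUSP5 and DUSP6 the 100% follows from raising both drug arrays to the same value. It says nothing of the combination, so a further fall could not be judged there. DUSP7 differed by -0.85, under the size rule, as did DUSP1 at -0.92 and DUSP10 at -0.70.

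Set directly against vemurafenib alone, the combination put 0 of the 5 genes at the floor over the size rule, where 0.322% of 8999 genes passed it. DUSP5 (-0.32), DUSP6 (0.11) and DUSP16 (-0.39) were below the floor on both arrays, so their differences describe values near background. DUSP7 was higher by 0.50 in the combination, above 99.4% of genes at the floor, and its second probe set, below the floor, gave 0.12. DUSP10 was lower by 0.43 on the probe set used and by 0.53 on the other, with 2.04% of genes lower than the former. DUSP4 differed by -0.24 (-0.02 with the combination array raised to the floor), DUSP1 by -0.20 and DUSP14 by 0.08.

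The AT9283 difference can be read without and with vemurafenib from arrays that are not shared. For DUSP10 it was -0.42 without and -0.43 with vemurafenib. Of 8718 genes at the floor in both, 6 including DUSP10 were as low or lower in both. The cut-off of this count was DUSP10's own pair of values and it was made for that gene alone, so it is no test. The second probe set of DUSP10 gave -0.23 without and -0.53 with vemurafenib. DUSP16 gave -0.41 and -0.39 but below the floor, and its mean over 4 probe sets gave 0.02 for AT9283 alone. DUSP1 gave -0.21 and -0.20, and the former was -0.09 as the mean of its probe sets. DUSP7 gave 0.12 and 0.50, and the former was -0.02 as the mean of its 2 probe sets.

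**Figure D3:**
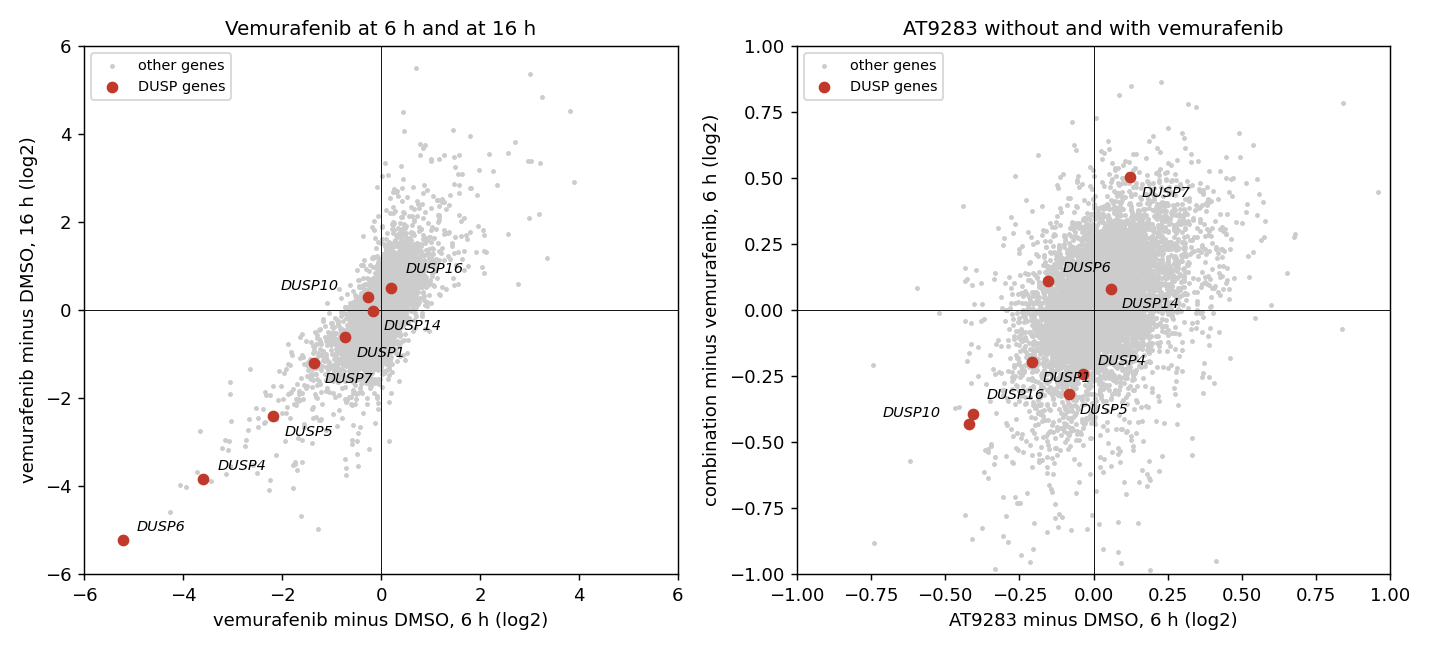
Each grey point is a gene at the floor and each red point 1 of the 8 DUSP genes, with log2 differences on both axes. On the left, vemurafenib at 6 h (x) against 16 h (y) puts DUSP6, DUSP4, DUSP5 and DUSP7 along the lower left. On the right, AT9283 without (x) against with vemurafenib (y) puts DUSP10 at -0.42 and -0.43 and DUSP7 at 0.12 and 0.50. The right panel leaves 31 of 9219 genes outside its axes.

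Other genes of the pathway place these values. Of 14 other DUSP genes measured, 7 were at the floor, and 0 fell or rose under vemurafenib at 6 h, with a median of -0.02. At 16 h DUSP23, a small atypical member, fell by 1.07 and 0 rose. Of the remaining MAP kinase phosphatases, DUSP2 stood at 5.18 in DMSO and 4.20 in vemurafenib at 6 h, below the floor. DUSP9, the other cytoplasmic ERK phosphatase, differed by -0.03 at 6 h, also below the floor, and DUSP8, of the JNK and p38 group, by -0.01 at the floor. Of 9 other phosphatases and binders of MAP kinases measured, 5 were at the floor at each time, and of 8 MAP kinases 6 were at 6 h and 5 at 16 h. Of these 0 fell or rose under vemurafenib at either time, and the medians over all measured lay between -0.10 and 0.04.

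ERK output genes outside the family also fell under vemurafenib. Of 22 measured, 16 of the 17 at the floor fell at 6 h and all 18 at the floor fell at 16 h, with medians over the 22 of -2.18 and -2.64. These lists were put together with the response of the pathway known, so their direction is no independent evidence. The 3 lowest differences as measured at 6 h were those of CXCL8 (-4.28), a chemokine, SPRY2 (-4.06), a feedback inhibitor of RAS signalling, and IER3 (-3.93), an immediate early gene. The vemurafenib arrays of CXCL8 and SPRY2 were below the floor. Raised to it they gave -1.56 and -3.55, and the 3 lowest were then IER3, SPRY2 and EPHA2 (-3.14), a receptor tyrosine kinase. With this bound 15 of the 17 passed the size rule at 6 h, as SPRY4 (-0.23) no longer did, and 16 of the 18 at 16 h. In the combination against vemurafenib alone 0 of the 11 at the floor passed the rule. The median of 0.08 is over all 22, including those below the floor on both arrays.

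Likeness over the 6 arrays was measured by Pearson's r among 2031 genes with an array at the floor and a range of at least 1. The arrays share 1 cell line, and values below the floor were used as measured. Except for DUSP10, r says mainly that a gene was low on the same 3 arrays. The genes most like DUSP6 were SMAD3 (r = 0.999), IER3, CXCL8, PPARG and ESM1 (r = 0.999 for the last). Those most like DUSP4 were TFAP2C, BCAR3, MCL1, SMAD3 and SPRY2, with r from 0.998 to 0.999. IL24, TNFRSF21, EPHA2, FHL2 and SAMD4A were most like DUSP5, with r from 0.995 to 0.998. VEGFC (r = 0.991), RND3, ITPRIP, SLITRK6 and MAFF (r = 0.984) were most like DUSP1. DUSP10 had looser neighbours, SSUH2 (r = 0.965), WIPI1, HECA, DHRS3 and SEMA4B (r = 0.933). Of these, 4 had a negative vemurafenib difference at 6 h and a positive one at 16 h of at least 0.45. They were picked by likeness to DUSP10 over these same arrays, so the shared signs follow from the choice and are no separate evidence.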

How the data were processed

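The authors deposited linear-scale intensity values of probe sets for 6 arrays, and RMA is the only tool the submitters' processing notes name. Its version and any joint normalization: not given in the sources used here. In 6 blocks of rows, 1118 of 54675 probe sets (2.04%) carried 6 h values of another row (DMSO at 6 h and 16 h had r = 0.455 there, 0.984 in the other identifier order, and 0.992 elsewhere). These and 62 control probe sets were left out, and 0 of the members' 19 probe sets were among them. Values were converted to log2. Names came from the platform annotation (41097 probe sets with 1 symbol, 1801 with several, 11777 not listed), with symbols updated through RefSeq. Each gene was read from its single-gene probe set with the highest mean log2, which gave 19676 genes. The members and lists were chosen with earlier results of these data known. Named genes are the 8 members, list genes over the size rule, DUSP2, DUSP8 and DUSP9, the 3 largest falls of the ERK list, and for 5 members the 5 genes of highest r, and these rules hold throughout. Limma 3.58.1 in R 4.3.3 (trended prior) gave the only p-values, and Python 3.11.15 the rest. RefSeq promoter windows were matched for 6 of 8 members. The size rule and the limma estimates were tested on simulated arrays with planted falls and equal noise for all genes. That run set no check on the limma adjusted p. Alternatives covered the misaligned rows, probe set choice, scaling, floor, size, control and fit.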

Additional observations from a re-analysis of the deposited data

Results flagged for a closer look

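DUSP10 is singled out because its vemurafenib difference had opposite signs at the 2 times, -0.27 at 6 h and 0.29 at 16 h, a change of 0.56 that was not tested. Both probe sets gave these signs, and neither value passed the size rule. DUSP6 is singled out because AT9283 went with opposite signs without (-0.15) and with (0.11) vemurafenib, a change of 0.26 that was not tested. The latter value lies between 2 arrays below the floor, and the other 2 probe sets gave -0.01 and 0.05 without vemurafenib and 0.18 and 0.74 with it.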

How the results depend on the processing

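The 7 counts of members were recomputed, 93 values in all, and 91 were within 1.5 times the reported count. The first exception was limma with values below the floor raised to it, chosen after seeing the data, which called 2 genes in place of 4 (DUSP5 and DUSP7 lost). That fit called 0.176% of all genes lower, against 0.839% in the main fit. The other exception was the combination against DMSO, where a 1.5-fold difference in place of 2-fold gave 6 genes (DUSP1, DUSP7 and DUSP10 in addition) in place of 3. How many of all genes passed at 1.5-fold was not counted, so this gain cannot be set against a share. For vemurafenib against DMSO the count ranged from 3 to 5 at both times, and for limma from 2 to 5. DUSP7 was otherwise the gene lost, at a difference of at least 1.5 at both times and as the mean of its probe sets at 6 h, and in limma with a floor of 5, no floor or the mean of probe sets. DUSP1 was the gene gained, at 1.5-fold and in the limma fit of all 6 arrays. The fit of all 6 arrays called 3.33% of 9707 genes lower, more than the main fit. The counts for AT9283, for the combination against vemurafenib and for DMSO over time were 0 throughout. No called difference changed sign in the alternatives run. The probe set with the highest mean on the linear scale, chosen after seeing the data, gave DUSP6 -6.65 at 6 h. Values below log2 6 limit the size of the falls of DUSP4, DUSP5 and DUSP6.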

Other observations

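The 5 genes that, with DUSP10, were as low with AT9283 both without and with vemurafenib were named after their values were seen. KLF2, a Kruppel-like factor, differed by -0.62 and -0.57. FST, which encodes the activin binder follistatin, differed by -0.69 and -1.41. PNRC1 differed by -0.74 and -0.88, UBALD2 by -0.67 and -1.48, and COQ8A by -0.43 and -0.78. Neither difference has a replicate check.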
